A study of Mus musculus with 2 samples.

Results

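The genes described here are 10 nuclear mediators and feedback targets of canonical WNT signalling. The DNA-binding partners of beta-catenin were Lef1, Tcf7, Tcf7l1 and Tcf7l2, and the genes that WNT signals commonly induce were Axin2, Sp5, Nkd1, Notum, Rnf43 and Znrf3. They were chosen by gene name among the non-control probes of both array files. All 10 were found, with 16 of the 39429 probes and among 29924 gene names on the array. All 16 probes passed the filter on dim probes, so every one of these genes stood among the 19875 genes tested.

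Gene expression was measured in ureters dissected from NMRI mouse embryos at E14.5. The Gata6cKO embryos had the genotype Tbx18(cre/+);Gata6(fl/fl), that is, both copies of the transcription factor gene Gata6 were floxed and cre was expressed from 1 copy of Tbx18, which is active in the undifferentiated mesenchyme of the ureter. The control embryos were Gata6(fl/?), with at least 1 floxed Gata6 copy and no cre in their labels. Each of 2 two-colour arrays carried 1 Gata6cKO RNA and 1 control RNA. Both RNAs of array 1 came from males, with the Gata6cKO RNA in the red dye, and both RNAs of array 2 came from females, with the dyes exchanged. Sex, replicate and dye orientation therefore cannot be told apart. Cre and the altered Tbx18 copy were present in every Gata6cKO RNA and in no control RNA, so they cannot be told apart from the loss of Gata6 either. No label tells if embryos were pooled for an RNA. A p-value therefore speaks only for these samples, and the spread behind it may be technical. That spread was drawn mostly from all genes (12.2 prior degrees of freedom), with 1 residual degree of freedom from a gene's own arrays.

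In canonical WNT signalling, a WNT ligand bound to a Frizzled receptor stops the destruction complex from degrading beta-catenin. Beta-catenin then enters the nucleus, where it binds TCF/LEF proteins on DNA and turns repression of their target genes into activation. Many of these targets restrain the pathway at its receptors or in the cytoplasm. In the embryonic ureter, WNT ligands of the epithelium act through beta-catenin on the surrounding mesenchyme, which forms the smooth muscle coat.

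The median spot signal was 224 to 425 in the Gata6cKO channels and 232 to 442 in the control channels, against median local backgrounds of 23 to 85, and no spot was saturated. The precision was limited by the number of arrays. Across all 19875 genes, 911 passed limma's moderated test at a Benjamini-Hochberg adjusted p under 0.05, which is 4.58%. Of these, 441 were higher in the RNA labelled Gata6cKO (2.22%) and 470 were lower (2.36%). Gata6 itself had a signal of 22508 and 22457 in the RNA labelled Gata6cKO, against 12515 and 16355 in control RNA, a log2 ratio of 0.65 ± 0.12 (limma adjusted p = 0.00573). That call was lost under median centring (adjusted p = 0.620), without the filter on dim probes (0.0699) and with the channels taken as separate RNAs (0.0524). The position of its probe relative to the floxed exons is unknown here, so this value checks nothing about the labels. Levels are given below as normalised signal per RNA, replicate 1 (male) before replicate 2 (female) within each genotype. A log2 ratio is Gata6cKO minus control, averaged over both arrays, with its moderated standard error (n = 2 arrays).

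Of the 10 genes, Sp5 was higher in Gata6cKO RNA, Lef1 was lower, and the other 8 did not pass the limma test. That is 1 gene against a background of 2.22% of all genes higher, and 1 gene against 2.36% lower. The Gata6cKO and control signals did not overlap for 5 of the 10, namely Lef1, Tcf7l2, Axin2, Sp5 and Rnf43, where 33.5% of all genes had groups that did not overlap. The log2 ratio was positive on both arrays for 5 genes, negative on both for 3 and of opposite sign for 2, Tcf7 and Notum. Among all genes, 48.8% had the same sign on both arrays. The median log2 ratio of the 10 was 0.07 and the median of its size was 0.12, beside -0.00 and 0.07 over all genes tested.

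**Figure D1:**
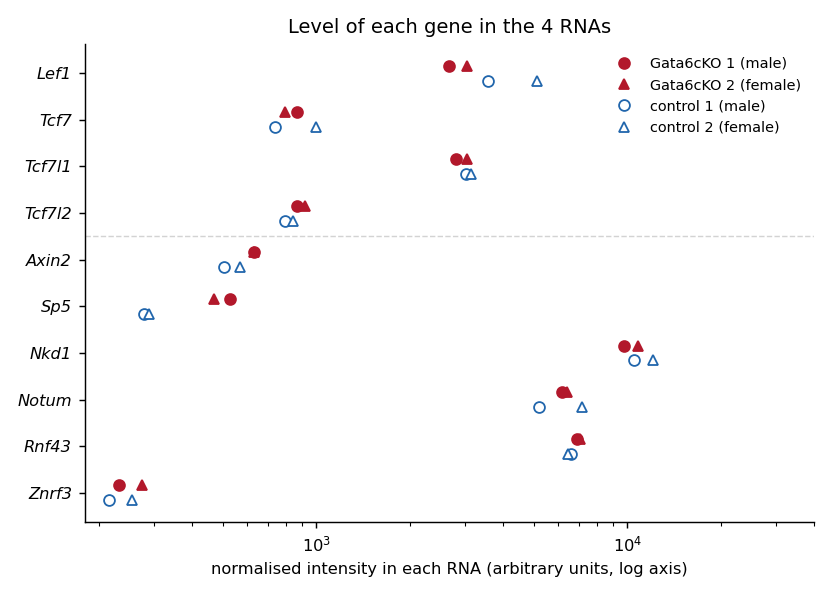
Normalised intensity (x axis, arbitrary units, log axis) of each of the 10 genes in the 4 RNAs, with the Gata6cKO RNAs (filled) above the control RNAs (open) in each row, circles for male and triangles for female. Sp5 is shifted to the right in Gata6cKO (527 and 470, against 280 and 290 in control) and Lef1 to the left (2681 and 3048, against 3569 and 5124 in control), while the genotypes overlap in Tcf7, Tcf7l1, Nkd1, Notum and Znrf3.

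The promoters of both genes that passed, and of Axin2 as the most used readout of the pathway, are shown because TCF/LEF proteins bind short sequence elements in such regions. They are the 250 bases before the gene start, 5′ to 3′ on the gene's strand, from RefSeq on GRCm38.p6: Sp5 at chr2:70474673-70474922 (+), Lef1 at chr3:131110047-131110296 (+, the most upstream of its listed starts) and Axin2 at chr11:108920099-108920348 (+). Capitals mark every match to the TCF/LEF letters CTTTGAT or CTTTGAA or to the GATA letters AGATAA, on either strand.
Sp5: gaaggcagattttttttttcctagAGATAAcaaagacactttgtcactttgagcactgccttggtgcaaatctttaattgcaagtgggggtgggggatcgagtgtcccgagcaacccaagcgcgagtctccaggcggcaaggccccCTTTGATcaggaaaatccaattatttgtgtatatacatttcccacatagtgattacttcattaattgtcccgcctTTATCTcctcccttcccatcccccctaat
Lef1: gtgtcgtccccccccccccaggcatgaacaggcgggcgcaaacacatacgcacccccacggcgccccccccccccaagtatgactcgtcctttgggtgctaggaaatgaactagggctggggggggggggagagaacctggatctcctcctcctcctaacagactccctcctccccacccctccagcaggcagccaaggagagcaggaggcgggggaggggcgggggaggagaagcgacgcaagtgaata
Axin2: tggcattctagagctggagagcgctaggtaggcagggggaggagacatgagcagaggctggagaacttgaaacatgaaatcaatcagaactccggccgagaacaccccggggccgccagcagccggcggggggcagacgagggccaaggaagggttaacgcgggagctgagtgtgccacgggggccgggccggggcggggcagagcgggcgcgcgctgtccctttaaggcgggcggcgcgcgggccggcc

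CTTTGAT stood in the Sp5 promoter at bases -104 to -98 from the start, and in no other of the 14 promoter windows listed for 8 of the 10 genes. Of all 32851 promoter windows of that length, 3.21% held it on either strand. CTTTGAA stood in none of the 14 windows, against 4.46% of all windows. AGATAA stood in the Sp5 window at bases -226 to -221 and, as TTATCT on the reverse strand, at -29 to -24. It also stood once in a Tcf7l2 window, at -187 to -182 on the reverse strand, and in 9.99% of all windows. None of these matches overlapped another. They describe letters only, not binding.

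Among the TCF/LEF genes, 1 of 4 passed. Lef1, which activates targets together with beta-catenin, had a signal of 2681 and 3048 in Gata6cKO RNA, against 3569 and 5124 in control RNA. The genotypes did not overlap, and the female control stood apart as the highest of the 4. The log2 ratio was -0.58 ± 0.12 (1.50-fold lower, 95% interval -0.84 to -0.32, limma adjusted p = 0.0107), with -0.41 in the male pair and -0.75 in the female pair. In a bulk sample, fewer cells of a type and less RNA per cell cannot be told apart. The call did not hold under 3 of 7 other settings, with an adjusted p of 0.489 under median centring, 0.0793 without the filter on dim probes and 0.184 with the channels taken as separate RNAs, while the log2 ratio stayed between -0.62 and -0.58.

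Lef1 had a second, dimmer probe. It read 688 and 711 in Gata6cKO RNA, against 852 and 1391 in control RNA, a log2 ratio of -0.64 with -0.31 in the male pair and -0.97 in the female pair (limma adjusted p = 0.0111 over all 26200 probes kept, of which 4.66% passed). Both Lef1 probes were thus lower in both Gata6cKO RNAs, and in both the female array gave the larger difference. Per the coordinates in the array files, the brighter probe lies at chr3:130926200-130926259 (+) on mm9. The dimmer probe lies at chr3:130907851-130926012 (+), a span far wider than its 60 bases, so that it joins separate stretches of the genome.

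Tcf7, which encodes a factor with activating and repressing isoforms, had a signal of 870 and 793 in Gata6cKO RNA, against 738 and 999 in control RNA. It was higher in Gata6cKO on the male array (0.24) and lower on the female array (-0.33), so that the mean log2 ratio was -0.05 ± 0.14 with a 95% interval of -0.34 to 0.24. Its dimmer probe split the same way, with 0.15 and -0.24. Tcf7l1, mainly a repressor of WNT targets, had a signal of 2819 and 3053 in Gata6cKO RNA, against 3030 and 3149 in control RNA. Its log2 ratio was -0.07 ± 0.11, with a 95% interval of -0.31 to 0.16. Tcf7l2 had 867 and 922 at its brightest probe in Gata6cKO RNA, against 794 and 843 in control RNA, a log2 ratio of 0.13 ± 0.11 that was 0.13 on either array and did not pass. Its other probes gave -0.07 and 0.00, so the direction depended on the probe. The 3 Tcf7l2 probes lie at chr19:55817272-55817331 (the brightest), chr19:55994029-55994088 and chr19:56006638-56006697 (+, mm9).

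**Figure D2:**
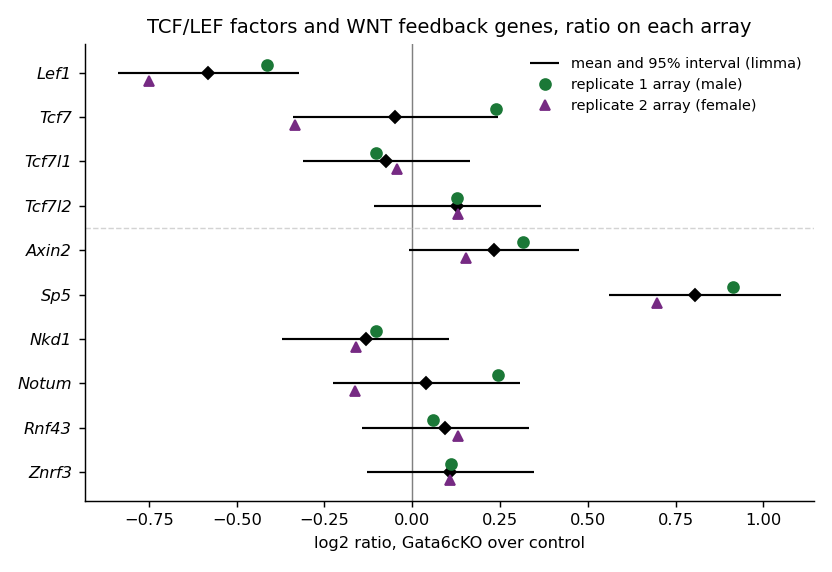
Log2 ratio of Gata6cKO over control (x axis) for the 10 genes, with the mean and its 95% interval from the moderated fit and a circle for the male and a triangle for the female array. Only the intervals of Sp5 (0.56 to 1.05) and Lef1 (-0.84 to -0.32) lie clear of 0, and the 2 array points fall on opposite sides of 0 for Tcf7 and Notum.

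Among the feedback targets, 1 of 6 passed. Sp5, a zinc finger transcription factor that WNT signals induce and that acts on other WNT targets, had a signal of 527 and 470 in Gata6cKO RNA, against 280 and 290 in control RNA. Both Gata6cKO RNAs lay far above both control RNAs. The log2 ratio was 0.81 ± 0.11 (1.75-fold higher, 95% interval 0.56 to 1.05, limma adjusted p = 0.000724), with 0.91 in the male pair and 0.70 in the female pair. Sp5 had a single probe, at chr2:70315688-70315747 (+, mm9). Its call was lost under median centring alone of 7 other settings, with an adjusted p of 0.0846, and its log2 ratio ranged between 0.81 and 0.99.

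Axin2, a scaffold of the destruction complex, had a signal of 629 and 631 in Gata6cKO RNA, against 506 and 568 in control RNA. The genotypes did not overlap, but the difference was small, with a log2 ratio of 0.23 ± 0.11 (1.18-fold, 95% interval -0.01 to 0.48) that did not pass (limma adjusted p = 0.486). It was 0.32 in the male pair and 0.15 in the female pair, and the dimmer probe gave 0.14 and 0.10. The probes lie at chr11:108812034-108812093 and chr11:108803927-108803986 (+, mm9).

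Nkd1, which binds Dishevelled and dampens the signal in the cytoplasm, had a signal of 9770 and 10818 in Gata6cKO RNA, against 10501 and 12095 in control RNA. Its log2 ratio was -0.13 ± 0.11 (95% interval -0.37 to 0.11), and the female control was again the highest RNA. The dimmer Nkd1 probe read 800 and 815 in Gata6cKO RNA, against 712 and 1202 in control RNA, with log2 ratios of 0.17 in the male pair and -0.56 in the female pair. Notum, an enzyme that removes the lipid from WNT ligands, had a signal of 6176 and 6405 in Gata6cKO RNA, against 5214 and 7175 in control RNA. The control RNAs lay on either side of both Gata6cKO RNAs, and the mean log2 ratio was 0.04 ± 0.12 (95% interval -0.23 to 0.31). Under median centring it was -0.0075, so it has no settled sign.

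The membrane ubiquitin ligases that clear Frizzled receptors from the cell surface did not pass. Rnf43 had a signal of 6898 and 7074 in Gata6cKO RNA, against 6619 and 6467 in control RNA, a log2 ratio of 0.09 ± 0.11 (95% interval -0.14 to 0.33). The genotypes did not overlap for Rnf43, but the interval included 0. Znrf3 had 233 and 275 in Gata6cKO RNA, against 216 and 255 in control RNA, a log2 ratio of 0.11 ± 0.11 (95% interval -0.13 to 0.35). It was 0.11 on either array, while the female RNA was the higher of each genotype.

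**Figure D3:**
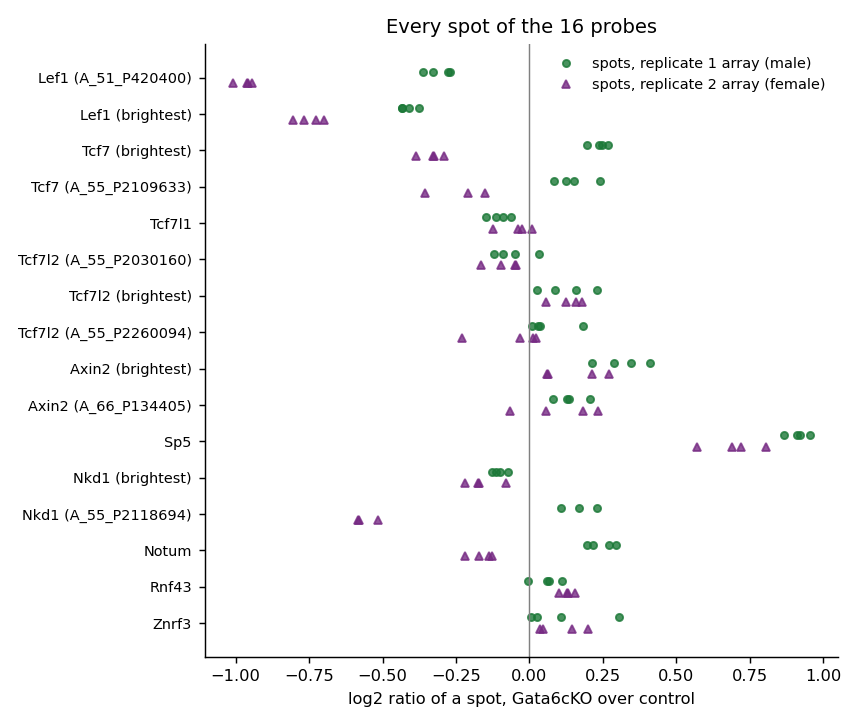
Log2 ratio of Gata6cKO over control (x axis) of every single spot of the 16 probes, one row per probe, with circles for the male and triangles for the female array. Spots of one probe on one array lie close together for the brightest Lef1 probe (SD 0.028 in the male pair and 0.046 in the female pair). For both probes of Lef1 and of Tcf7, for Sp5, for Notum and for the dimmer Nkd1 probe, the spots of the 2 arrays do not overlap. Those of Sp5 lie at 0.87 to 0.95 on the male and 0.57 to 0.81 on the female array.

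Set among all genes, Sp5 ranked 219 and Lef1 554 by p-value of the 19875 tested. The female control RNA was the highest of the 4 RNAs for 5 of the 10 genes, namely Lef1, Tcf7, Tcf7l1, Nkd1 and Notum, and for 24.1% of all genes. The male control RNA was the highest for 0 of the 10 and for 31.4% of all genes.

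**Figure D4:**
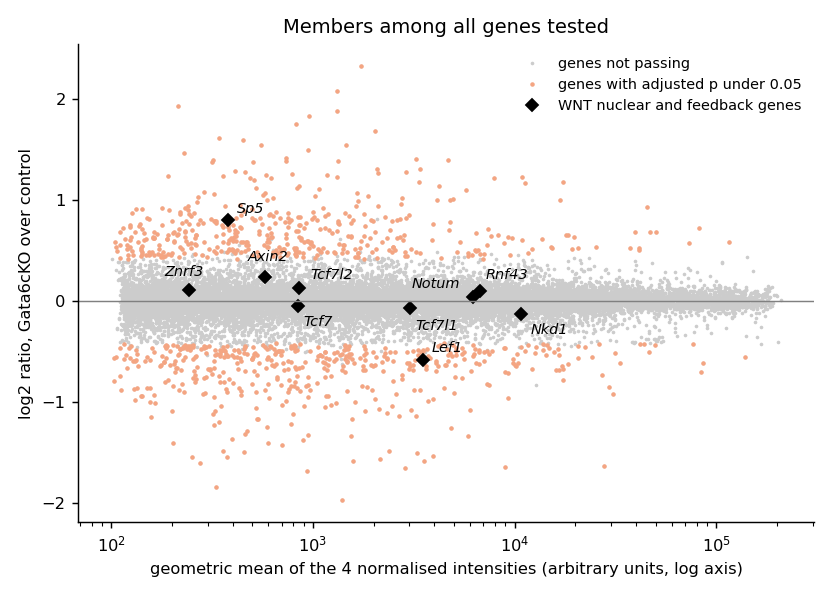
Log2 ratio of Gata6cKO over control (y axis) against the geometric mean of the 4 normalised intensities (x axis, log axis) for all 19875 genes, with genes past the threshold in orange and the 10 WNT genes as black diamonds. Sp5 at 0.81 and Lef1 at -0.58 lie among the genes that passed, and the other 8 lie in the grey cloud around 0.

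The pathway around these genes was described with 4 lists, in which 81 genes were tested: 10 were higher in Gata6cKO RNA, 5 were lower, and the median log2 ratio was 0.04. The lists were chosen with earlier results of these data known. No share called in a list was tested against that of all genes. None of 15 cytoplasmic components passed the limma test, 1 of them had an unadjusted p under 0.05, and 0 passed with the channels taken as separate RNAs. Over all genes, 11.4% had an unadjusted p under 0.05. Ctnnb1, which encodes beta-catenin, had a signal of 42087 and 39322 in Gata6cKO RNA, against 40730 and 47180 in control RNA, and a log2 ratio of -0.11 ± 0.12. Axin1, the constitutive counterpart of Axin2, had a log2 ratio of 0.10 ± 0.11. None of 15 nuclear cofactors passed, with 2 at an unadjusted p under 0.05 and 0 passing with separate channels.

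Of 17 other genes that WNT signals induce in various tissues, 13 were tested, and 3 of them were higher, 1 was lower and 9 did not pass (30.8% called, against 4.58% of all genes, and 2 genes called with separate channels). Dkk4, Cdx1, Cdx2 and Mmp7 were not well above background. Tnfrsf19, a receptor of the tumour necrosis factor family, had a signal of 1045 and 1000 in Gata6cKO RNA, against 611 and 561 in control RNA, a log2 ratio of 0.80 ± 0.11 (limma adjusted p = 0.000582). Dkk1, a secreted WNT antagonist, had 1540 and 1205 in Gata6cKO RNA, against 608 and 905 in control RNA, with 1.34 in the male pair and 0.41 in the female pair (0.88 ± 0.17, limma adjusted p = 0.00673). Lgr5, a receptor of R-spondins, had 307 and 303 in Gata6cKO RNA, against 226 and 185 in control RNA (0.58 ± 0.12, limma adjusted p = 0.0094). These 3 genes stood with Sp5 in being higher in both Gata6cKO RNAs than in either control RNA. The same held in this list for 2 genes that did not pass. Tbx2 had 7039 and 7656, against 6483 and 6175 in control RNA, and Tbx3 43156 and 46624, against 41356 and 41950. The genotypes did not overlap, in either direction, for 33.5% of all genes.

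Cd44, a hyaluronan receptor, was the WNT-induced gene that was lower, with 742 and 676 in Gata6cKO RNA, against 1256 and 1362 in control RNA (-0.89 ± 0.12, limma adjusted p = 0.000402). Its 3 probes lay between -0.89 and -0.58. The cell cycle gene Ccnd1 (-0.20 ± 0.12), the transcription factor gene Myc (-0.02 ± 0.12) and the WNT inhibitor gene Apcdd1 (-0.05 ± 0.14) did not pass. Nor did Tbx2 (0.21 ± 0.11) and Tbx3 (0.11 ± 0.11), T-box genes of the ureteric mesenchyme.

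Among ligands, receptors and secreted modulators, 38 genes were tested, and 7 were higher, 4 were lower and 27 did not pass (28.9% called, against 4.58% of all genes). Rspo1, an R-spondin that keeps Rnf43 and Znrf3 from clearing Frizzled, had a signal of 1140 and 776 in Gata6cKO RNA, against 414 and 249 in control RNA (1.55 ± 0.11, limma adjusted p = 3.87e-06). Rspo3 had 8352 and 8003 in Gata6cKO RNA, against 4978 and 5247 in control RNA (0.68 ± 0.11). Rspo2, named after its values were seen, did not pass, with 209 and 198 in Gata6cKO RNA, against 186 and 140 in control RNA (0.33 ± 0.12, limma adjusted p = 0.199). Neither of the ligases that R-spondins act on passed.

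The ligand genes Wnt5a (0.82 ± 0.12), Wnt9b (0.83 ± 0.11) and Wnt11 (0.48 ± 0.12) were higher in Gata6cKO RNA, and Wnt4 (-0.47 ± 0.11) and Wnt10a (-0.61 ± 0.14) were lower. Wnt7b, a ligand of the ureteric epithelium, did not pass, with 864 and 974 in Gata6cKO RNA, against 910 and 975 in control RNA. The secreted antagonists Frzb (0.75 ± 0.12) and Sfrp5 (0.80 ± 0.11) were higher and Sfrp2 (-0.51 ± 0.11) was lower. The antagonist gene Sfrp4, named here after its values were seen, had 0.14 in the male pair and 1.48 in the female pair and did not pass (0.81 ± 0.22, limma adjusted p = 0.0509). Lgr4, a receptor of R-spondins like Lgr5, was lower (-0.54 ± 0.11), opposite to Lgr5. Wnt2b, Wnt3, Wnt3a, Wnt7a, Wnt8a, Wnt8b, Wnt10b and Rspo4 were not well above background. Of the 15 pathway genes that passed, only Rspo1 and Cd44 also passed under median centring, and Dkk1, Lgr5, Wnt4, Wnt10a, Wnt11 and Sfrp2 passed neither without the filter on dim probes nor with separate channels. Wnt4 also missed the threshold as the mean of its probes, and Wnt11 with processed signals.

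**Figure D5:**
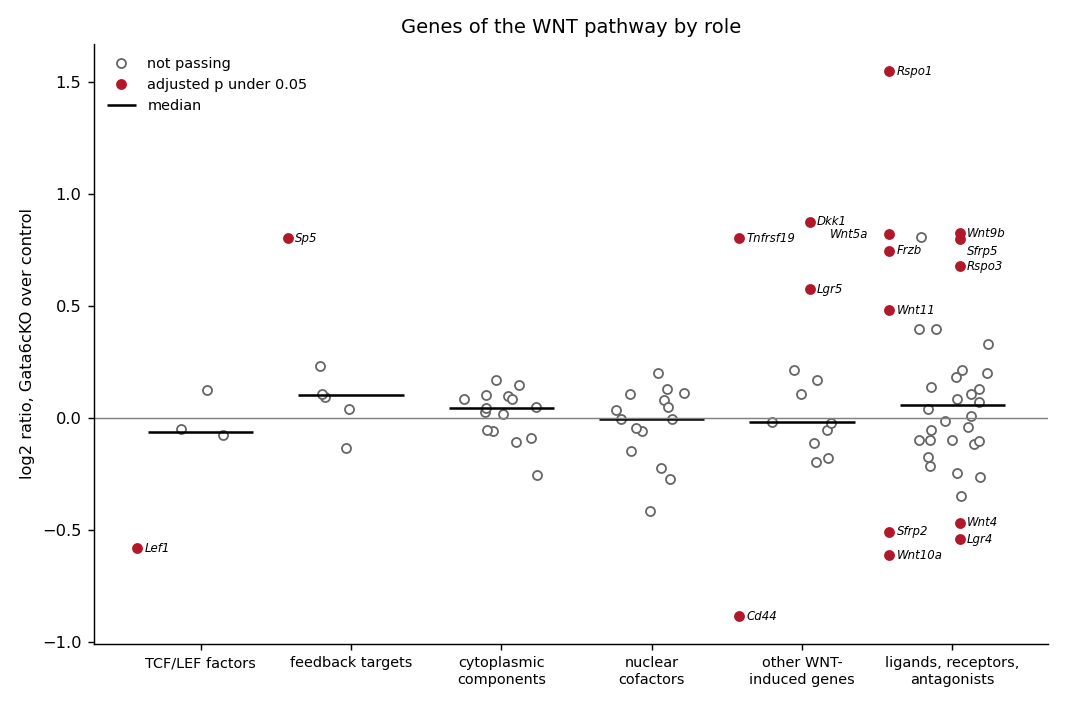
Log2 ratio of Gata6cKO over control (y axis) of every tested gene in the TCF/LEF, feedback, cytoplasmic, nuclear cofactor, other WNT-induced, and ligand and receptor lists, with filled and named points for genes that passed limma's test. Genes past the threshold lie in both directions in the last 2 lists (3 higher and 1 lower, 7 higher and 4 lower), and the cytoplasmic and nuclear cofactor lists hold 0. Bars mark list medians, and the open circle at 0.81 is Sfrp4.

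For both genes that passed, the genes nearest in pattern were found by the Euclidean distance between their log2 levels over the 4 RNAs, each centred on its mean. Nearest to Lef1 were Kl (distance 0.0747, log2 ratio -0.53), the co-receptor alpha-Klotho, then Aff2 (0.138, log2 ratio -0.44, adjusted p = 0.0552, not passed) and the metal transporter Slc30a10 (0.139, log2 ratio -0.59). Kl (92 and 105 in Gata6cKO RNA, against 122 and 166 in control RNA) and Slc30a10 (103 and 105, against 136 and 182) were dim. With processed signals their log2 ratios were -1.44 and -1.56, beside -0.61 for Lef1, so their match to Lef1 depended on the processing. Nearest to Sp5 were the sialyltransferase St6galnac5 (0.0164, log2 ratio 0.79) and the formin Fhod3 (0.0525, log2 ratio 0.78). With processed signals the log2 ratio was 1.18 for St6galnac5 and 0.86 for Fhod3, beside 0.98 for Sp5. The mean of the St6galnac5 probes gave 0.64. The match of St6galnac5 to Sp5 thus depended on the processing and the probe. With 4 RNAs, such a pattern is mainly the split by genotype and sex.

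Markers of several cell types differed between the genotypes on the same arrays, where 2.22% of all genes were higher and 2.36% lower. The marker lists, too, were chosen with earlier results of these data known. Of 8 smooth muscle markers, 4 were lower and 0 higher, and 3 were called with separate channels. Their summed signal was 28728 to 35198 in Gata6cKO RNA, against 36920 to 47149 in control RNA. Of 16 urothelium markers, 8 were lower and 0 higher, and 7 were called with separate channels (211830 to 227915 in Gata6cKO RNA, against 274934 to 296231 in control RNA). Of 4 tested mesothelium markers, 3 were lower and 1 was higher (34058 to 36722 in Gata6cKO RNA, against 45787 to 52054 in control RNA), and Lrrn4 was not well above background. All 4 tested were called with separate channels. The mesothelium list shares Upk3b and Krt19, both lower, with the urothelium list, and Wt1, the gene that was higher, with the list of nephron markers.

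Other lists went the opposite way, beside 2.22% of all genes higher. Of 11 markers of neurons and glia, 9 were higher and 0 lower, and 8 were called with separate channels (106454 to 115775 in Gata6cKO RNA, against 87950 to 96980 in control RNA). Of 7 nephron markers, 4 were higher and 0 lower, and 2 were called with separate channels (22269 to 26022 in Gata6cKO RNA, against 13149 to 14710 in control RNA). Wt1 alone had 12964 and 11166 in Gata6cKO RNA, against 5668 and 4688 in control RNA. Of 6 skeletal muscle markers, 3 were higher and 0 lower (0 called with separate channels), though the summed signal overlapped (16137 to 23502 in Gata6cKO RNA, against 20217 to 23208 in control RNA). Of 9 markers of ureteric mesenchyme, 0 passed the limma test and 4 had an unadjusted p under 0.05, beside 11.4% of all genes. With separate channels 0 were called, and the sums were 267794 to 282028 in Gata6cKO RNA, against 304766 to 314871 in control RNA.

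Lef1 and Tcf7 are also genes of lymphocytes. Of the lymphocyte markers, Cd3g was not well above background, and 0 of the 3 tested passed, with 0 at an unadjusted p under 0.05 and 0 with separate channels (sums of 1543 to 1554 in Gata6cKO RNA, against 1634 to 1840 in control RNA). Of 5 red cell markers, 4 were lower and 0 higher, beside 2.36% of all genes lower. Their sums were 28080 to 29970 in Gata6cKO RNA, against 40263 to 40596 in control RNA, and 1 marker was called with separate channels. Of 5 endothelial markers, 1 was lower (0 called with separate channels). Of 5 macrophage markers 0 passed, 1 had an unadjusted p under 0.05, beside 11.4% of all genes, and 0 passed with separate channels. The part of any of these cell types in the values of Sp5, Lef1 or the other WNT genes was not tested.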

How the data were processed

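Total RNA of the 4 ureter samples was labelled with a green or a red dye and hybridised on 2 two-colour arrays, which shared 1 slide and 1 scan per the file headers. The deposited scanner files hold raw mean and local background intensity per spot. They also hold processed intensities and a log10 ratio of red over green, made by the authors with Agilent Feature Extraction 10.7.3.1 (per the submitters' processing notes). The deposited series values are a score per probe that behaves as a signed linear fold: no value had a size under 1, both column medians were 1, and after conversion to log2 Pearson r with the processed log2 ratios was 0.986 and 0.980 across probes. The labels give no rule by which the authors summarised spots for it.

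In R 4.3.3 with limma 3.58.1 (with statmod 1.5.0), raw intensities were corrected with normexp (offset 50) and log2 ratios normalised by loess within arrays and turned to Gata6cKO over control. Spots were averaged per probe. Probes with at least 3 of 4 spots well above background, in either genotype on both arrays, were kept (26200), and the brightest probe stood for a gene. Signals per RNA were quantile-normalised on mean intensity between arrays. Each array is its own pair, since its RNAs were hybridised together. eBayes had 1 residual and 12.2 prior degrees of freedom (prior SD 0.162), and p-values, two-sided, were Benjamini-Hochberg adjusted over 19875 genes. The fit was tested on simulated data.

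The named genes were all 10 genes with each probe, every called gene of the context lists and a fixed set of pathway genes, and the 3 nearest genes in pattern, of which 1 is not reported here. The genes and lists were chosen with earlier results of these data known. Symbols were updated through RefSeq (GRCm38.p6, 1359 changed), and probe coordinates are on mm9. Alternatives were processed signals, median centring, no filter, mean of probes, an intensity trend, separate channels, the deposited values, other probes and single arrays. Promoters of Notum and Znrf3 were not used here.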

Additional observations from a re-analysis of the deposited data

Results flagged for a closer look

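Opposite directions on the male and the female array were found for 2 of the 10 genes, 3 dimmer probes and 3 of the pathway genes named whatever they did. Over the 4 pathway lists, 24 of 81 genes had opposite signs (29.6%), 13 of them positive on the male array and 11 negative there, and over all genes 10175 of 19875 did (51.2%). In each case both RNAs of a comparison came from the same array. The difference between the arrays was not tested, and sex, replicate and dye orientation cannot be told apart.

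Tcf7 had a log2 ratio of Gata6cKO over control of 0.24 in the male pair and -0.33 in the female pair, and its dimmer probe 0.15 and -0.24. Notum had 0.24 in the male pair and -0.16 in the female pair. The dimmer Nkd1 probe, measured on 3 spots per array, had 0.17 in the male pair and -0.56 in the female pair, while the brighter Nkd1 probe was negative on both. A dimmer Tcf7l2 probe had 0.065 and -0.056. In the pathway around them, Apcdd1 had 0.24 in the male pair and -0.35 in the female pair, Myc 0.19 and -0.24, and Ctnnb1 0.047 and -0.26. Each of these named values was positive in the male pair, a direction that 13 of the 24 pathway genes of opposite sign shared. The groups of 2 RNAs were too small for a test of single outlying samples.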

How the results depend on the processing

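Over all genes, 911 passed (441 higher, 470 lower), against 190 (90 higher, 100 lower) under median centring instead of loess, 486 (255 and 231) without the filter on dim probes, where 30011 genes were tested, and 1484 (680 and 804) from the deposited series values. With no replicate block, the channels taken as separate RNAs in place of pairs, 538 passed (272 and 266), and the consensus correlation between the channels of a spot was -0.04. That setting also used intensities quantile-normalised between arrays and another fit, so it changed more than the pairing. Of the 10 genes, 2 passed, against 0 under median centring (2 had an unadjusted p under 0.05), 1 without the filter and 1 with no replicate block. Of 81 pathway genes, 15 passed, against 2, 9 and 9 in the same order. Among tested settings and other probes, reversed were Notum under median centring (-0.0075) and Tcf7l2 at another probe (-0.073). Of the other tested values of single genes, 234 kept direction and side of the threshold, 40 lost the call and 3 gained it. The causes were not tested. Leaving out an array left no residual degrees of freedom, so it gave values without a test: -0.75 to -0.41 for Lef1 and 0.70 to 0.91 for Sp5. Of 78 such values, 5 had the opposite sign to the mean of both arrays: Tcf7 (0.24), Myc (0.19), Apcdd1 (0.24) and Ctnnb1 (0.047) on the male array alone, and Notum (-0.16) on the female array alone. Signal over background limits the dim Znrf3 and the dimmer Axin2 and Tcf7 probes. The single Sp5 probe was also rather dim, at percentile 24.7 of intensity among the genes tested. Its log2 ratio of 0.81 became 0.98 with processed signals and 0.99 from the deposited values.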
